A study of Mus with 18 samples.

Results

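The Fos family comprises Fos, Fosb, Fosl1 and Fosl2, the genes that encode the Fos-type subunits of the transcription factor AP-1. They were found in the count tables by their Ensembl IDs, which are ENSMUSG00000021250 for Fos, ENSMUSG00000003545 for Fosb, ENSMUSG00000024912 for Fosl1 and ENSMUSG00000029135 for Fosl2, and they make up 4 of the 55416 gene IDs counted. All 4 genes had reads in every library and passed the filter on low counts in every comparison. The RNA came from mouse lens capsules with their attached lens epithelial cells (LECs), collected either at once (0 h) or 6 h after the lens fiber cells had been removed in a mouse model of cataract surgery. There were 3 genotypes, all labelled strain C57BL/6, and 3 libraries in each of the 6 groups. Wild type (WT) mice carried no modified allele per the labels. Egr1KO mice lacked Egr1, another immediate early transcription factor, in all tissues through an insertion in its exon 2. In FosBcKO mice, exons 2 and 3 of Fosb were flanked by loxP sites and were removed by the MLR10 Cre transgene, whose alpha-A crystallin promoter restricts the deletion to the lens. Any other cell on the capsule therefore kept an intact Fosb gene. Egr1KO mice carried an intact Fosb gene in all cells. By the methods, the Egr1KO stock was of mixed strain origin, and the Cre line came from FVB/N mice backcrossed to C57BL/6. In comparisons with WT, strain origin and the Cre transgene therefore cannot be told apart from the deletions. Mice were 3 to 5 months old and of both sexes, and each library pooled 5 capsules. In such pooled tissue, fewer cells of a type and less RNA per cell cannot be told apart.

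Fos proteins bind DNA mainly as dimers with Jun proteins, through a basic region next to a leucine zipper, at the AP-1 site of target genes. Fos and Fosb are immediate early genes: growth factors, stress and wounding switch on their transcription within minutes, through signalling kinases and without new protein synthesis, and their mRNAs are short-lived. FOS and full-length FOSB carry strong activation domains. The products of Fosl1 (FRA1) and Fosl2 (FRA2) lack them, and Fosl1 is itself a known target of AP-1. Lens epithelial cells are known to respond to surgery as a wounded epithelium, and the study deleted Egr1 and Fosb to ask what these factors contribute to that response.

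Library totals ran from 9609295 to 13871592 counts in genes. Levels are given as CPM, the gene's count divided by the library total and multiplied by 1000000. Counting error on the lowest values was at most 32.2% either way for Fosb, 30.8% for Fosl1, 11.8% for Fos and 5.81% for Fosl2. It was taken from the exact binomial 95% interval, which covers counting error alone. On the first principal component of all genes, the libraries of Egr1KO 6 h replicate 1, at -4.70, and FosBcKO 6 h replicate 3, at 23.6, stood apart from the others of their time. The remaining libraries at 6 h lay between 54.1 and 115.6, and those at 0 h between -90.3 and -39.4. Read pairs that fell in no annotated gene were also a larger share at 6 h, 20.03% to 30.5%, than at 0 h, 8.03% to 20.9%, and its part in the differences between times was not tested. The labelled cell type was not checked against marker genes, because the tables pair no names with their IDs.

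Fosb was low at 0 h and reached group means of 1075 to 1715 CPM 6 h after fiber cell removal, including the libraries labelled FosBcKO. In WT at 0 h, the 3 libraries held 275, 83 and 74 Fosb counts, or 26.3, 7.38 and 7.20 CPM. In WT at 6 h they held 16326, 9111 and 8045 counts, or 1539, 918.4 and 766.9 CPM. The lowest WT library at 6 h was thus far above the highest at 0 h. Egr1KO libraries held 63, 49 and 124 counts at 0 h (5.14, 4.70 and 12.9 CPM) and 30751, 6430 and 17380 counts at 6 h (3044, 463.5 and 1637 CPM). Libraries labelled FosBcKO held 51, 80 and 187 counts at 0 h (4.55, 8.29 and 18.1 CPM) and 20330, 16544 and 20682 counts at 6 h (1745, 1430 and 1778 CPM). All 9 libraries at 6 h exceeded all 9 at 0 h, and at both times the ranges of the 3 genotypes overlapped. The Egr1KO libraries spread the most at 6 h and the FosBcKO libraries the least, with standard deviations (SD) of 1292 and 192.4 CPM.

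**Figure D1:**
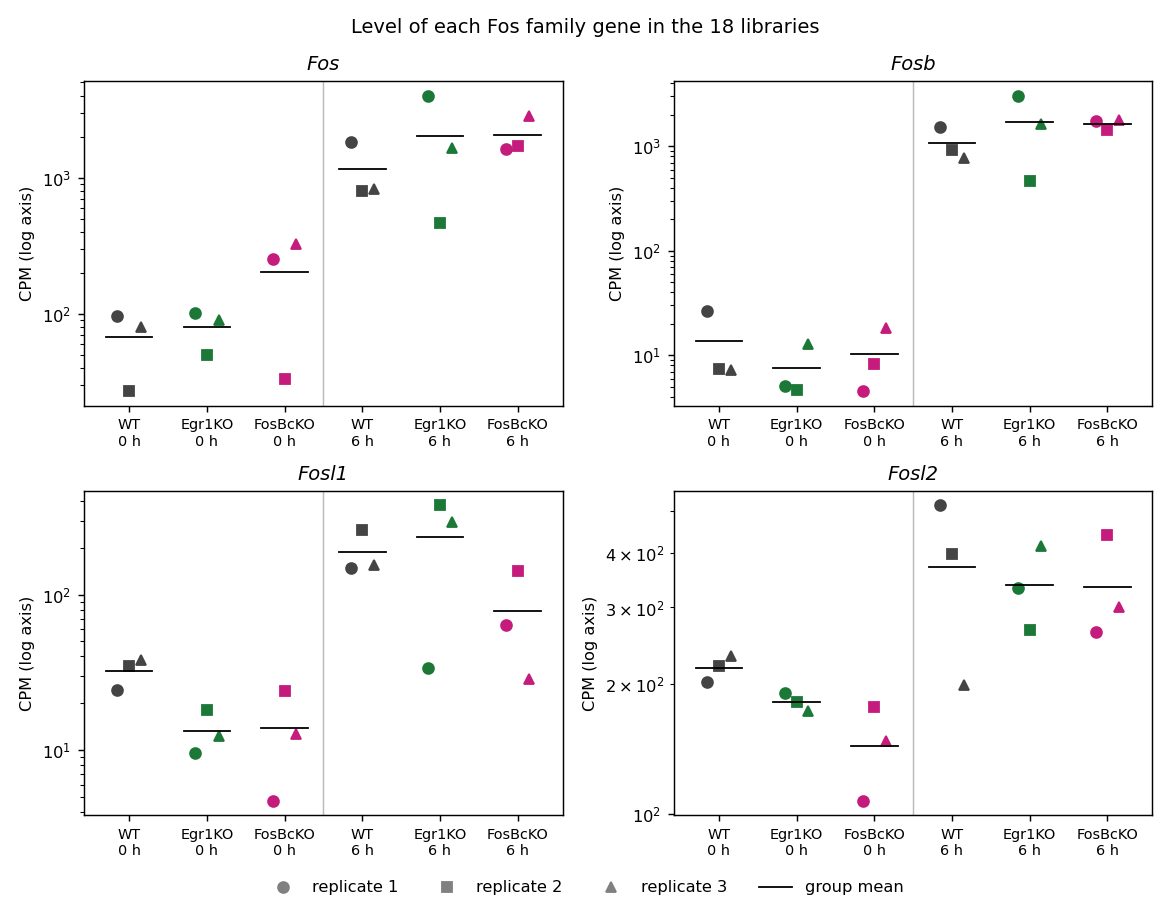
CPM of each Fos family gene in each of the 18 libraries on a log axis, by genotype and time; points are libraries and horizontal bars are group means (n = 3). For Fos and Fosb every library at 6 h lies above every library at 0 h, and the libraries labelled FosBcKO have Fosb at 1430 to 1778 CPM at 6 h, within the range of the other genotypes.

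The rise of Fosb with injury was among the largest of all genes. In WT the log2 fold change was 6.21 (SE 0.66), a 73.9-fold difference, with a false discovery rate (FDR) of 0.00151 by the quasi-likelihood F-test of edgeR, and it ranked 16 from the top among 15440 genes tested. In Egr1KO it was 7.91 (SE 0.89, FDR = 0.0028 by the same edgeR test), ranking 11 of 14586. In the libraries labelled FosBcKO it was 7.30 (SE 0.56, FDR = 0.000725 by the same edgeR test), ranking 14 of 15475. All 3 rises passed the call used here, FDR of at most 0.05 and more than a 2-fold change. They did so in each of the 14 alternatives tried per genotype, with log2 fold changes between 5.84 and 8.54. The ratios start from 49 to 275 counts per library at 0 h.

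Fosb, the gene targeted in FosBcKO, was not lower in those libraries 6 h after injury. At 6 h the mean was 1651 ± 192.4 CPM (SD, n = 3) in FosBcKO and 1075 ± 409.0 CPM in WT, so the level was 154% of WT. The log2 fold change was 0.73 (SE 0.34, 95% CI -0.04 to 1.49, FDR = 0.22 by the edgeR exact test), and the ranges of the groups overlapped. The lower end of that interval corresponds to 0.976-fold, so a large loss of reads over the whole gene lay outside it. WT 6 h replicate 1 was decisive here: without it the FosBcKO level was 195.9% of WT and the log2 fold change of 1.09 was called (FDR = 0.0383 by the edgeR exact test). The other alternatives did not call Fosb, with FDR values up to 0.693 and a lowest log2 fold change of 0.47, without WT 6 h replicate 3. Against Egr1KO at 6 h the log2 fold change was -0.19 (SE 0.59, 95% CI -1.56 to 1.18, FDR = 0.997 by the edgeR exact test), and it turned positive without Egr1KO 6 h replicate 1, at 0.51.

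At 0 h the spread of Fosb between libraries did not allow a statement on a fall. The highest WT library was 3.66 times the lowest. The 0 h mean was 10.3 ± 7.01 CPM in FosBcKO and 13.6 ± 10.99 CPM in WT, or 75.7% of WT. The log2 fold change was -0.39 (SE 0.79, 95% CI -2.40 to 1.63, FDR = 1 by the edgeR exact test), so the interval held both a large fall and a large rise. Without WT 0 h replicate 1, which had the highest count, the level was 141.7% of WT and the log2 fold change 0.53. Against Egr1KO at 0 h it was 0.43 (SE 0.62, FDR = 0.976 by the edgeR exact test), and -0.31 without FosBcKO 0 h replicate 3.

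These counts cover the whole gene. Reads from the exons that the deletion leaves in place are counted together with any from exons 2 and 3, and the deposited counts do not separate exons. A transcript without exons 2 and 3, transcripts of cells that kept the gene, and intact transcripts therefore cannot be told apart, and the Fosb count checks neither the deletion nor the label of these libraries. The study examined the deletion in other ways. It reported complete loss of the floxed region by PCR of lens DNA, and absence of FosB protein in FosBcKO LECs by immunofluorescence at 6 h. These measures are not analysed here. FosBcKO stands throughout for libraries that carry this label.

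Fos, whose product is the classical partner of JUN, rose in all genotypes, with the least stable call in FosBcKO. WT libraries had 1011, 307 and 829 Fos counts at 0 h (96.8, 27.3 and 80.7 CPM) and 19459, 7931 and 8633 at 6 h (1834, 799.5 and 823.0 CPM). Egr1KO libraries had 1255, 525 and 870 counts at 0 h (102.4, 50.4 and 90.5 CPM) and 40303, 6515 and 17661 at 6 h (3989, 469.7 and 1663 CPM). Libraries labelled FosBcKO had 2824, 325 and 3356 counts at 0 h (252.0, 33.7 and 325.4 CPM) and 19072, 19664 and 32745 at 6 h (1637, 1699 and 2815 CPM). FosBcKO replicates 1 and 3 at 0 h were the highest of all libraries of that time, whereas replicate 2 was the second lowest. Every library at 6 h was above every one at 0 h.

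The log2 fold change of Fos with injury was 3.99 in WT (SE 0.57, FDR = 0.00315), 4.74 in Egr1KO (SE 0.79, FDR = 0.00891) and 3.31 in FosBcKO (SE 0.85, FDR = 0.0435), each by the edgeR quasi-likelihood F-test. The call in WT held in all 14 alternatives and that in Egr1KO in 13, being lost without a filter on low counts (FDR = 0.0663 by the same edgeR test). The call in FosBcKO was lost in 7 of 14, among them the omission of any library of that contrast except FosBcKO 0 h replicate 2, which gave log2 fold changes of 2.95 to 3.80 and FDR values of 0.057 to 0.171 by the same edgeR test. The 6 libraries of that contrast separated by time, with at least 1637 CPM at 6 h and at most 325.4 CPM at 0 h.

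Fosl1, which encodes FRA1, was higher at 6 h in each genotype, with the widest spread of the family at that time. The rise was called in WT and Egr1KO but not in FosBcKO. WT libraries had 254, 393 and 392 counts at 0 h (24.3, 34.9 and 38.1 CPM) and 1569, 2584 and 1621 at 6 h (147.9, 260.5 and 154.5 CPM). Egr1KO libraries had 117, 189 and 119 counts at 0 h (9.55, 18.1 and 12.4 CPM) and 343, 5215 and 3101 at 6 h (34.0, 375.9 and 292.0 CPM). Libraries labelled FosBcKO had 53, 232 and 131 counts at 0 h (4.73, 24.1 and 12.7 CPM) and 738, 1655 and 335 at 6 h (63.4, 143.0 and 28.8 CPM). At 6 h the highest library was 13.1 times the lowest, against 8.49 times for Fos, 6.57 times for Fosb and 2.60 times for Fosl2, and 7 of 9 libraries at 6 h were above all those at 0 h. The 2 exceptions were Egr1KO replicate 1 and FosBcKO replicate 3.

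With injury Fosl1 changed by 2.44 on the log2 scale in WT (SE 0.30, FDR = 0.00196 by the edgeR quasi-likelihood F-test), called in all 14 alternatives. In Egr1KO it was 4.17 (SE 0.78, FDR = 0.0124 by the same edgeR test), and the call was lost without Egr1KO 0 h replicate 1 (3.97, FDR = 0.0612) or replicate 3 (4.11, FDR = 0.06) and without a filter on low counts. In FosBcKO it was 2.56 (SE 0.86, FDR = 0.0909 by the same edgeR test) and was not called, although the 3 libraries at 6 h were all above the 3 at 0 h. It was called there by the edgeR exact test (FDR = 0.0143), DESeq2 (FDR = 0.0182), the edgeR fit of all 18 libraries (FDR = 0.044) and the edgeR fit without the robust option (FDR = 0.0222).

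Fosl2, which encodes FRA2, varied least among libraries at each time. WT libraries had 2105, 2475 and 2382 counts at 0 h (201.5, 220.0 and 231.8 CPM) and 5482, 3961 and 2085 at 6 h (516.7, 399.3 and 198.8 CPM). Egr1KO libraries had 2329, 1891 and 1659 counts at 0 h (190.0, 181.5 and 172.6 CPM) and 3360, 3693 and 4421 at 6 h (332.6, 266.2 and 416.3 CPM). Libraries labelled FosBcKO had 1203, 1701 and 1522 counts at 0 h (107.4, 176.4 and 147.6 CPM) and 3073, 5117 and 3490 at 6 h (263.8, 442.2 and 300.0 CPM). WT 6 h replicate 3 was the only library at 6 h that fell within the range of the libraries at 0 h. The log2 fold change with injury was 0.69 in WT (SE 0.34, FDR = 0.167), 0.97 in Egr1KO (SE 0.20, FDR = 0.0139) and 1.24 in FosBcKO (SE 0.26, FDR = 0.0136) by the edgeR quasi-likelihood F-test. The FosBcKO rise was called, the Egr1KO difference was 1.95-fold and so short of the 2-fold minimum, and the WT difference did not pass. Single libraries moved these calls: WT was called without WT 6 h replicate 3 (1.02, FDR = 0.000804 by the same edgeR test), Egr1KO without Egr1KO 6 h replicate 2 (1.16), and FosBcKO was not called without FosBcKO 6 h replicate 2 (0.88).

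**Figure D2:**
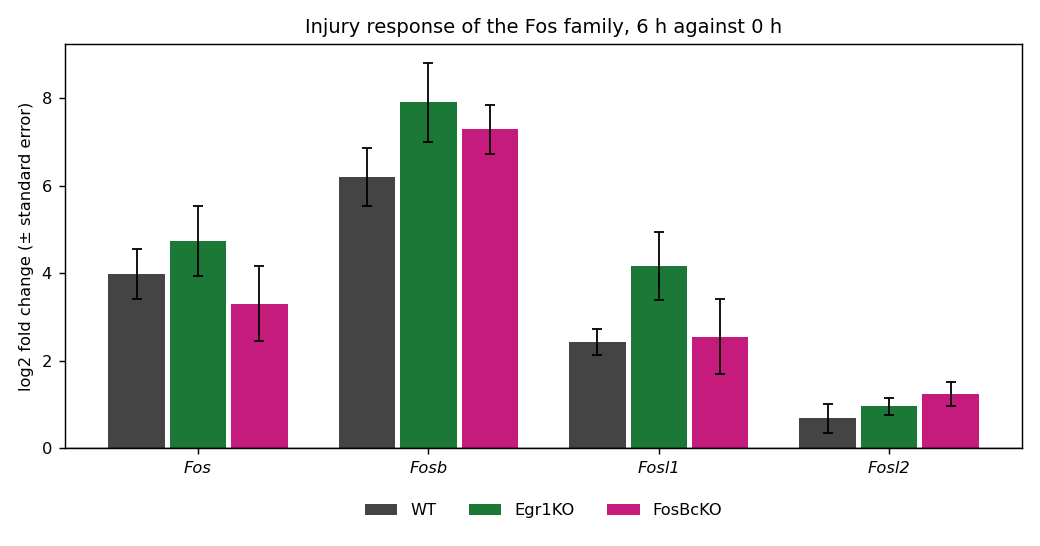
Log2 fold change of each Fos family gene at 6 h against 0 h in WT, Egr1KO and FosBcKO, from the edgeR quasi-likelihood fit of each genotype; bars start at 0 and error bars are standard errors. Fosb has the tallest bar in each genotype, at 6.21, 7.91 and 7.30, and Fosl2 the lowest, at 0.69, 0.97 and 1.24.

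Counted together, 3 of the 4 genes were called higher with injury in each genotype: Fos, Fosb and Fosl1 in WT and Egr1KO, and Fos, Fosb and Fosl2 in FosBcKO. Among all genes tested, 13.5% were called higher in WT, 9.28% in Egr1KO and 11.2% in FosBcKO (both directions together 17.1%, 12% and 13.1%). Groups did not overlap for 3 members in WT and for all 4 in Egr1KO and FosBcKO, all higher at 6 h, whereas 28.2%, 18.1% and 22.8% of all genes were higher without overlap. The median log2 fold change of the members was 3.21, 4.45 and 2.93, and that of all genes -0.02, 0.00299 and 0.05. The responses of the genotypes were compared through the interaction of genotype and time over all 18 libraries (edgeR quasi-likelihood F-test, 17469 genes). No member was called for a difference in response, and neither was any other gene (0% called for each genotype). By the same test 1141 genes for Egr1KO and 1171 for FosBcKO had an unadjusted p under 0.05. DESeq2 called no member either. For Fosb the difference in response from WT was 1.67 (SE 1.02, 95% CI -0.51 to 3.86) in Egr1KO and 1.03 (SE 1.01, 95% CI -1.12 to 3.19) in FosBcKO on the log2 scale. Without WT 0 h replicate 1, the library with the most Fosb at that time, the Fosb differences were 0.77 and 0.13, and over all omissions of a library they ranged from 0.77 to 2.35 and from 0.13 to 1.76. For Fosl1 it was 1.71 (SE 1.07) and 0.06 (SE 1.06). These intervals are wide. Without a filter on low counts the Egr1KO differences of Fosb and Fosl1 were called (FDR = 8.04e-06 and 2.53e-06 by the same edgeR test). Their estimates hardly moved, to 1.74 for each, and the share of all genes called in that fit was not determined.

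A further question was whether the other Fos genes were higher where Fosb was targeted. None was called in FosBcKO against WT at either time by the edgeR exact test, where 0.295% of 14556 genes were called at 0 h and 5.41% of 16155 at 6 h. DESeq2 called none either, and 2 of the 4 genes at 0 h and 3 at 6 h, Fosb among the latter, had an unadjusted p under 0.05, as did 5.62% and 16.5% of all genes. At 6 h Fos was 2051 ± 662.7 CPM in FosBcKO and 1152 ± 590.7 CPM in WT (SD, n = 3). Its log2 fold change was 0.95 (SE 0.42, 95% CI -0.01 to 1.92, FDR = 0.188 by the edgeR exact test), and the ranges overlapped. It was called without WT 6 h replicate 1 (1.48, FDR = 0.00877 by the edgeR exact test), the same library that decided Fosb, and in no other of the 14 alternatives. At 0 h Fos was 203.7 ± 151.7 CPM in FosBcKO and 68.2 ± 36.4 CPM in WT, with a log2 fold change of 1.60 (SE 1.03, 95% CI -1.21 to 4.41, FDR = 1 by the edgeR exact test). The low FosBcKO replicate 2 lay inside the WT range.

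Fosl1 pointed the other way. At 6 h it was 78.4 ± 58.6 CPM in FosBcKO and 187.6 ± 63.2 CPM in WT. In CPM all FosBcKO libraries, at 143.0 or less, were narrowly below all WT libraries, at 147.9 or more. After the TMM scaling used in the tests the groups overlapped. FosBcKO replicate 2 then had 150.9, against 143.5 in WT replicate 1 and 135.3 in WT replicate 3. The log2 fold change was -1.10 (SE 0.55, 95% CI -2.35 to 0.15, FDR = 0.301 by the edgeR exact test). Without FosBcKO 6 h replicate 2, the highest of its group, it was -1.99 and called (FDR = 0.00198 by the edgeR exact test). It shrank to -0.76 without WT 6 h replicate 2 (FDR = 0.591 by the same edgeR test). Without FosBcKO 6 h replicate 3, a library that stood apart on the first principal component, it was -0.70 (FDR = 0.674 by the same edgeR test). At 0 h Fosl1 was 13.8 ± 9.71 CPM against 32.5 ± 7.24 CPM in WT. There was again no overlap in CPM, since the highest FosBcKO library had 24.1 CPM and the lowest WT library 24.3 CPM. This was a log2 fold change of -1.24 (SE 0.59, 95% CI -2.77 to 0.29, FDR = 0.848 by the edgeR exact test). It was called at -1.86 without FosBcKO 0 h replicate 2 (FDR = 0.0345 by the edgeR exact test), and the omissions of other libraries gave values up to -0.83. Fosl2 was 143.8 ± 34.7 CPM in FosBcKO against 217.8 ± 15.3 CPM in WT at 0 h, lower without overlap, with a log2 fold change of -0.60 (SE 0.16, FDR = 0.263 by the edgeR exact test). DESeq2 gave it an FDR of 0.0244, at less than the 2-fold minimum. At 6 h its means were 335.3 ± 94.3 and 371.6 ± 160.8 CPM, a log2 fold change of -0.02 (SE 0.41, 95% CI -0.95 to 0.90, FDR = 1 by the edgeR exact test). In CPM, lower values without overlap were thus found for 2 of 4 members at 0 h, where 6.57% of all genes were lower without overlap. At 6 h they were found for 1 of 4, where 11.8% of all genes were lower without overlap. That member was Fosl1, whose groups overlapped at 6 h with TMM-scaled CPM. The median log2 fold change of the members was -0.49 at 0 h and 0.35 at 6 h, and that of all genes -0.00690 and 0.00436.

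**Figure D3:**
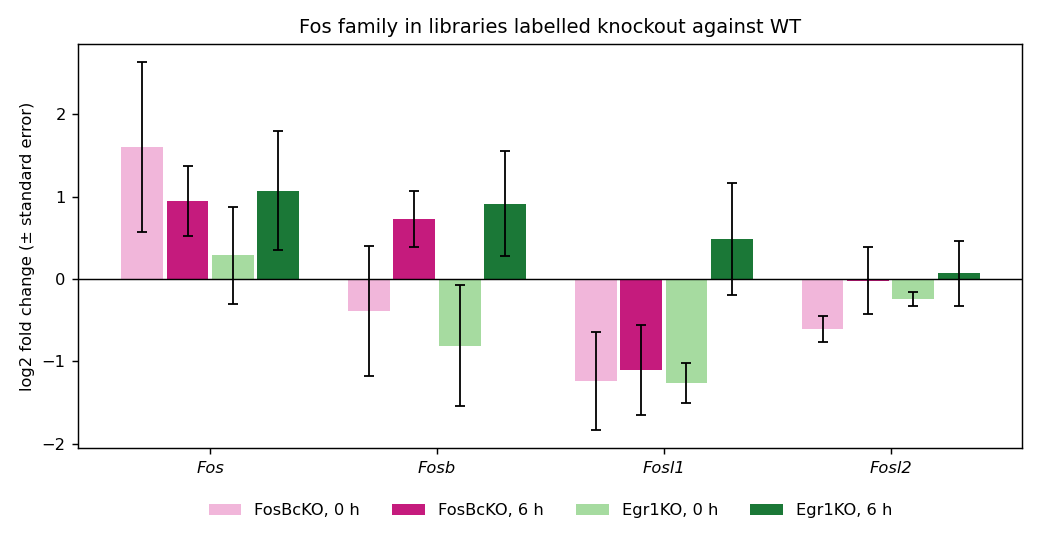
Log2 fold change of each Fos family gene in FosBcKO against WT and in Egr1KO against WT at 0 h and 6 h. Bars start at 0 and show the estimate of the edgeR exact test, and error bars are standard errors from the edgeR quasi-likelihood fit. At 6 h Fosb is at 0.73 and Fos at 0.95 in FosBcKO, and Fosl1 at 0 h lies below 0 in both genotypes, at -1.24 and -1.26.

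Egr1KO shares its WT control libraries with FosBcKO, so the values of the comparisons are given side by side only. At 0 h Fosl1 was 13.4 ± 4.38 CPM in Egr1KO, lower than in WT without overlap, and it was the only member called (log2 fold change -1.26, SE 0.24, FDR = 0.00419 by the edgeR exact test), where 0.41% of 14373 genes were called. This call was lost in 5 of 14 alternatives, among them with the quasi-likelihood F-test of edgeR (FDR = 0.0793), the edgeR fit of all 18 libraries (FDR = 0.957), and the fits without Egr1KO 0 h replicate 1 (FDR = 0.113) or replicate 3 (FDR = 0.11), though the log2 fold change stayed between -1.52 and -1.06. Fosl2 was also lower without overlap at 0 h (181.4 ± 8.69 CPM, log2 fold change -0.24, SE 0.09, FDR = 0.866 by the edgeR exact test), and 9.32% of all genes were lower without overlap. At 6 h no member was called, where 0.736% of 15618 genes were, none had an unadjusted p under 0.05 (9.67% of all genes did), DESeq2 called none, and the ranges of all 4 overlapped with WT, where 16.9% of all genes did not overlap. The log2 fold changes were 1.07 for Fos (SE 0.72), 0.92 for Fosb (SE 0.64), 0.49 for Fosl1 (SE 0.68) and 0.07 for Fosl2 (SE 0.39). Without Egr1KO 6 h replicate 2, Fos at 1.56 and Fosb at 1.38 were called (FDR = 0.0456 and 0.0322 by the edgeR exact test). Without Egr1KO 6 h replicate 1, a library that stood apart, they were 0.12 and 0.19.

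In FosBcKO against Egr1KO, a comparison the study does not state, no member was called by the edgeR exact test. Among all genes, 0.96% of 14167 were called at 0 h and 2.5% of 15885 at 6 h. DESeq2 called none, and 1 member at 0 h (Fosl2) and 0 at 6 h had an unadjusted p under 0.05, where 8.24% and 9.75% of all genes had one. Fosl1 at 6 h had the largest difference, with a log2 fold change of -1.61 (SE 0.85, 95% CI -3.60 to 0.38, FDR = 0.544 by the edgeR exact test). It was called at -2.15 without Egr1KO 6 h replicate 1 (FDR = 0.0149 by the edgeR exact test), a library that stood apart, and ranged from -2.50 to -1.16 over all omissions. Fos at 0 h was 1.33 higher on the log2 scale in FosBcKO (SE 0.94, FDR = 0.826), and 1.83 without FosBcKO 0 h replicate 2, which was called (FDR = 0.00117 by the edgeR exact test), against 0.77 at the lowest.

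Summed over Fos, Fosl1 and Fosl2, the level at 6 h was 2464 ± 609.8 CPM in FosBcKO, 1711 ± 696.4 CPM in WT and 2613 ± 1635 CPM in Egr1KO (SD, n = 3). The ranges were 1965 to 3144 CPM in FosBcKO and 1176 to 2499 CPM in WT and so overlapped. At 0 h the same sum was 361.3 ± 125.8, 318.5 ± 34.4 and 275.9 ± 26.0 CPM. With Fosb included, the family rose on average from 332.1 to 2786 CPM in WT, from 283.5 to 4328 CPM in Egr1KO and from 371.6 to 4115 CPM in FosBcKO. These sums were not tested.

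Injury changed the make-up of the family reads. Counts are not divided by gene length, so a share or ratio can be set beside that of another library but says nothing of which gene had more transcripts. Fosb took 1.23% to 7.54% of the family counts at 0 h and 29.4% to 47.0% at 6 h. Fosl2 took 29.1% to 76.0% at 0 h and 4.49% to 16.9% at 6 h. Fosb counts were 1.81% to 27.2% of the Fos counts of the same library at 0 h and 63.2% to 114.9% at 6 h, so that the libraries of the times did not overlap in this ratio either. At 6 h the ratio was 97.3% ± 15.9 in WT, 91.1% ± 12.8 in Egr1KO and 84.6% ± 21.7 in FosBcKO (SD, n = 3), with overlapping ranges.

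**Figure D4:**
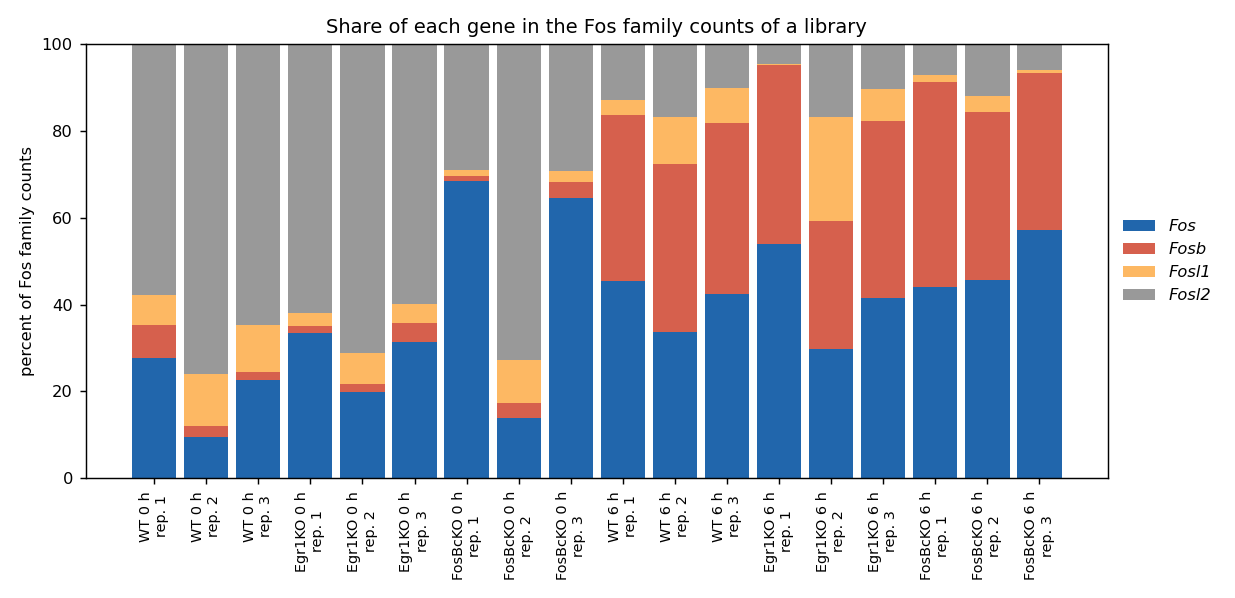
Share of the summed Fos family counts taken by each gene in each of the 18 libraries, in percent, without correction for gene length. The Fosb share is 1.23% to 7.54% in libraries at 0 h and 29.4% to 47.0% at 6 h, while the Fosl2 share falls to 16.9% or less in all libraries at 6 h.

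Among the 9 libraries at 6 h, Fos and Fosb ranked alike and Fosl1 did not. The ranks of Fos and Fosb differed by at most 3 places. Egr1KO replicate 1 was highest in both, at 3989 CPM of Fos and 3044 CPM of Fosb, but held 34.0 CPM of Fosl1, the second lowest. Egr1KO replicate 2 was lowest in both, at 469.7 and 463.5 CPM, and highest in Fosl1, at 375.9 CPM. The 3 libraries with the highest Fosb (Egr1KO replicate 1 and FosBcKO replicates 3 and 1) were the 3 with the lowest Fosl1. This is a description of 9 libraries from 3 genotypes, made after the values were seen.

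**Figure D5:**
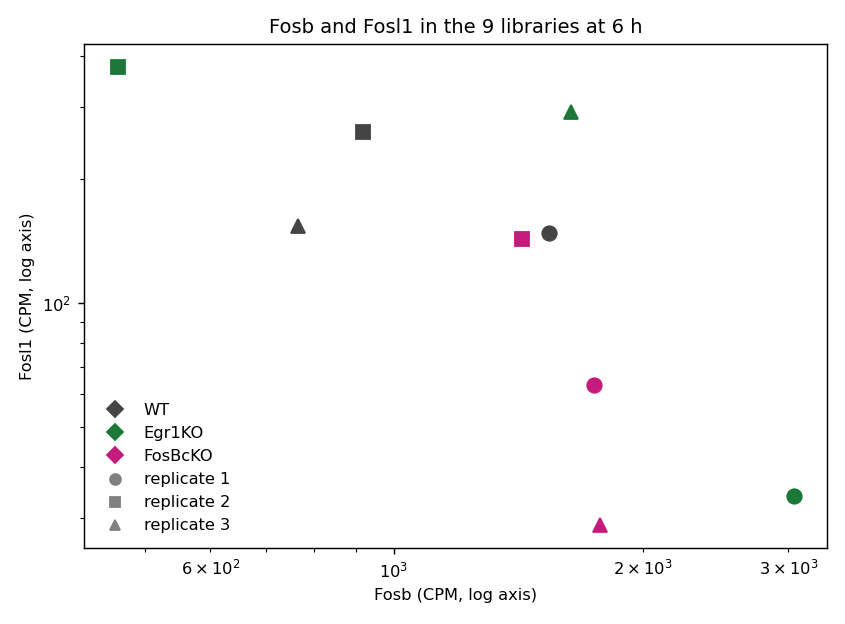
Fosl1 CPM against Fosb CPM in the 9 libraries at 6 h, both on log axes, coloured by genotype. The library with the most Fosb (3044 CPM) has 34.0 CPM of Fosl1, and the one with the least (463.5 CPM) has the most Fosl1, 375.9 CPM.

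The groups could be ordered by mean level as follows. For Fos and Fosb the 3 groups at 6 h lay above the 3 at 0 h with a clear gap, and within each time neighbouring groups overlapped. For Fosl1 the order was Egr1KO, WT and FosBcKO at 6 h, followed by WT, FosBcKO and Egr1KO at 0 h. FosBcKO at 6 h overlapped with WT at 0 h, and gaps without overlap in CPM lay between WT and FosBcKO at each time. The gap at 6 h was absent with TMM-scaled CPM. For Fosl2 the groups at 6 h overlapped with each other, WT led those at 0 h, and the WT range at 0 h did not overlap with that of Egr1KO.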

How the data were processed

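RNA from 18 libraries of lens capsule LECs was sequenced as ribodepleted paired-end reads. The authors deposited raw counts per Ensembl gene ID, made by aligning to the mouse genome with HISAT2 and counting with HTSeq in union mode. The genome is given as GRCm38 in the methods and GRCm39 in the submitters' processing notes, so no coordinates are given. Rows that name no gene were left out of library totals and tests. They held 34.4% to 48.0% of read pairs, among them the 8.03% to 30.5% that fell outside annotated genes. Groups came from the labels. Of the 55416 IDs, 0 could be matched to symbols in the reference, so only the 4 members, given by ID, are named. Pathway lists, Jun partners, the Egr1 count, cell type markers and sequences were not analysed here.

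Counts were scaled by TMM, filtered by filterByExpr and tested two-sided in edgeR 4.0.16 (R 4.3.3) with robust dispersions, on the 6 libraries of each contrast: the quasi-likelihood F-test for 6 h against 0 h and the exact test between genotypes. Interactions used all 18 libraries. P-values were adjusted by Benjamini-Hochberg over all genes tested, and a call needed an FDR of at most 0.05 and more than a 2-fold change. Standard errors and 95% intervals came from the quasi-likelihood fit. Alternatives were the other edgeR test, DESeq2 1.42.0, RLE scaling, keeping all genes with a count, requiring 10 counts in 3 libraries, fitting the 18 libraries jointly, dispersions without the robust option, a replicate block, and omission of each library. Between genotypes, the joint fit and the replicate block used the quasi-likelihood F-test in place of the exact test. Members and lists were chosen with earlier results of these data known.

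Same-numbered WT libraries at 0 h and 6 h deviated together from their group means (correlations over genes of 0.102, 0.23 and 0.247). The block took the replicate number as a pairing in every comparison, although the labels do not say what a shared number stands for. The block changed no call in WT. Each library is a biological replicate pooled from 5 animals per the methods, so p-values measure the spread between pools. Replicates differed beyond sampling noise in every group.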

Additional observations from a re-analysis of the deposited data

How the results depend on the processing

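Of 696 alternative values for 44 single-gene results, 633 kept direction and call, 16 gained a call, 17 lost one and 30 turned sign. The turns fell on 13 results, 0 of which had been called. With 3 libraries a group, single libraries set many genotype differences. Fosb at 0 h, with 49 to 275 counts, is limited mainly by the spread between libraries. Its SD was 80.6% of the mean in WT and 67.9% in FosBcKO, whereas its counting error was at most 32.2%. Where the cause of a change is not given by its construction, the cause was not tested.

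With a replicate block, FosBcKO against WT gave 0.058 for Fosl2 at 6 h, and FosBcKO against Egr1KO gave -0.16 for Fosl1 at 0 h and 0.38 for Fos and 0.20 for Fosb at 6 h (log2). Outside WT the evidence for pairing by number was mixed: of 6 pairs of same-numbered libraries of one genotype 3 had a correlation over 0.1 (0.0198 to 0.181), and of 18 pairs between genotypes at one time 4 did. The block also removed the FosBcKO injury call of Fos (edgeR FDR = 0.115). In Egr1KO against WT at 0 h, the fit with the block left 0 members called (Fosl1 at -1.28, edgeR quasi-likelihood FDR = 0.0675). That fit also replaced the exact test by the quasi-likelihood F-test, so this loss cannot be assigned to the block. The quasi-likelihood F-test without a block (Fosl1 FDR = 0.0793) and the fit of all libraries gave 0 there too. Without a filter on low counts, 1 member was called with injury in Egr1KO, and 2 in the Egr1KO interaction. The share of all genes called in these fits was not determined.

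Leaving out each library, between 3 and 4 members were called with injury for WT, between 2 and 4 for Egr1KO, and between 1 and 3 for FosBcKO. Between FosBcKO and WT they ranged from 0 to 1 at 0 h and 0 to 2 at 6 h, between Egr1KO and WT from 0 to 1 and 0 to 2, and between FosBcKO and Egr1KO from 0 to 1 at both times. The interactions stayed at 0. Fosb in FosBcKO ranged from 47.1% to 141.7% of WT at 0 h and from 134.4% to 195.9% at 6 h. With TMM-scaled CPM it was 77.1% and 157.4%. Log2 fold changes that turned sign ranged, for FosBcKO against WT, from -1.11 to 0.53 for Fosb at 0 h and -0.38 to 0.29 for Fosl2 at 6 h. For Egr1KO against WT they ranged from -0.084 to 0.63 for Fos and -1.47 to 0.075 for Fosb at 0 h, and from -0.26 to 0.38 for Fosl2 at 6 h. For FosBcKO against Egr1KO they ranged from -0.31 to 1.09 for Fosb and -0.59 to 0.44 for Fosl1 at 0 h, and from -0.61 to 0.80 for Fos, -0.65 to 0.51 for Fosb and -0.43 to 0.080 for Fosl2 at 6 h. The interaction ranged from -0.21 to 1.26 for Fos and -0.032 to 0.58 for Fosl2 in Egr1KO, and from -0.81 to 0.66 for Fosl1 in FosBcKO.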

Other observations

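Over all 18 libraries, the gene whose pattern lay closest to that of Fos was ENSMUSG00000052837, with a mean absolute difference of 0.42 between the centred log2 CPM values, out of 13531 genes compared. The closest to Fosb was ENSMUSG00000070687, at a mean absolute difference of 1.07. Fos itself was number 18 in the order of likeness to Fosb, at 1.56. These distances are descriptions across libraries that share times and genotypes, and the files do not pair the IDs with names.

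The replicate 2 libraries had the lowest Fos level of their group in 5 of 6 groups and the highest Fosl1 level in 5 of 6. The exceptions were FosBcKO at 6 h for Fos and WT at 0 h for Fosl1. Replicate 1 libraries had the lowest Fosl1 level in 5 of 6 groups. The labels do not say what a shared replicate number stands for, and this was noticed after the values were seen and not tested.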
